A study of Mus musculus with 2 samples.

Results

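Mitochondrial ribosomal protein genes were taken from a table of gene expression in CT26, a mouse colon carcinoma cell line. Members were the protein-coding rows whose names begin with Mrpl or Mrps and a number, as large (Mrpl) and small (Mrps) subunit proteins are named. They numbered 78 of 22046 protein-coding genes, 49 named for the large subunit and 29 for the small. Subunits below follow these names. One CT26 culture was transduced with lentivirus carrying mouse Oct4 and human SOX2, and the control culture with lentivirus of the empty vector. Both were grown for 4 days in RPMI 1640 with serum, and 1 library was made from each. With no replicate, every difference below compares 2 libraries and has no replicate check, and no test across samples was possible.

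The mitochondrial ribosome makes the few proteins encoded by mitochondrial DNA, all of them parts of the respiratory chain and ATP synthase. Its ribosomal RNAs come from mitochondrial DNA, while all of its proteins are encoded in the nucleus, made in the cytosol and imported. Compared with the bacterial ribosome it has lost RNA and gained proteins found only in mitochondria. Other nuclear genes supply the assembly factors, translation factors and tRNA synthetases that it works with.

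Reads recovered from the deposited values summed to 32262408 for the control and 31521115 for the Oct4/SOX2 library. Reads on the members were 87906 and 84144, or 0.272% and 0.267% of these totals. Pou5f1, the gene for Oct4, had no read in the control and 12406 after transduction. Sox2, the mouse gene on which some reads of the human transgene could be counted, stood at 14.1 and 23.3 FPKM. Of 9 colon epithelium markers only Krt18 and Krt20 reached 1 FPKM, and they differed in direction. Krt18 stood at 15.2 and 11.3 FPKM in the control and Oct4/SOX2 libraries, and Krt20 at 14.9 and 28.3 FPKM. The epithelial adhesion genes Epcam and Cdh1 had 1 and 0 control reads, so these adhesion markers were all but absent. Among 10 markers of other cell types, the leukocyte and endothelial genes had at most 2 reads. The fibroblast genes were divided. The collagen genes Col1a1 and Col1a2 stood at 62.1 and 184.6 FPKM in the control and 40.0 and 305.7 FPKM after transduction. Pdgfra and Dcn were low, at 1.59 and 0.494 FPKM in the control and 1.48 and 0.366 FPKM after transduction. Summed, the epithelial list stood at 30.8 and 39.8 FPKM and the other list at 248.8 and 347.5 FPKM in the control and Oct4/SOX2 libraries, and their part in the values below was not tested. In such bulk libraries fewer cells of a type and less RNA per cell cannot be told apart.

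The members differed little between the libraries, in either subunit. Of the 77 members with at least 1 FPKM in 1 library, 3 were at least 25% higher after transduction, 6 at least 20% lower, and 68 lay between. Both limits are a log2 ratio of 0.32 and are the call level used below. Over all 10276 protein-coding genes that passed the same filter, 13.8% were higher and 14.6% lower by the call level, against 3.90% and 7.79% of the members. Among 6585 protein-coding genes with control reads in the members' range these shares were 13.7% and 12.8%. Ratios were taken on the log2(FPKM + 1) scale. FPKM is the number of sequenced fragments for each kilobase of a gene, made comparable between libraries by their depth, and the added 1 understates differences of low genes. At 1.5-fold 1 member was lower and none higher (4.48% and 4.71% of all protein-coding genes), and none passed 2-fold (1.07% lower and 1.39% higher).

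The members' median lay slightly below 0, and their share above 0 was lower than that of all protein-coding genes. The median log2 ratio of the members was -0.06, beside -0.01 for all protein-coding genes. Of 77 members 31, or 40.3%, had a ratio above 0. The share was 48.4% for all protein-coding genes and 50.3% for those in the same read range. With plain read totals the member values were -0.03 and 44.2%. That scaling raises the log2 ratio of every gene by 0.031 before the added 1. The values for other genes were not recomputed with it. For the 40.3%, an exact 95% binomial interval over the members runs from 29.2 to 52.1%. It treats genes as independent, which they are not, so it cannot decide whether the members differ from other genes. Summed over the members, control expression was 1220 FPKM, against 1188 FPKM in the other library, a ratio of 0.974. The ratios spread less among the members (SD 0.22 across genes) than among the 6585 genes of like read number (SD 0.35), although the median distances from 0 were closer, 0.16 and 0.18. Across the 77 genes, which share their libraries, log2 FPKM in the control and in the Oct4/SOX2 library had a Pearson correlation of 0.970.

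The subunits had nearly the same median. The 29 small subunit genes had a median log2 ratio of -0.06, with 11 above 0 and 18 below, and sums of 413.7 FPKM in the control and 402.1 FPKM after transduction. The 48 measured large subunit genes had a median of -0.05, with 20 above and 28 below 0, and sums of 806.0 and 786.1 FPKM. The small minus large difference of medians was -0.01. Among members that share no exon bases with another gene the small subunit median was -0.12 and the difference -0.09. By place in the structure, Mrps18a and Mrps30 belong to the large subunit despite their names, and Mrps36 is not in the ribosome. Grouped by place, without Mrps36, the small subunit median was -0.08, the large subunit median -0.05 and the difference -0.03.

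**Figure D1:**
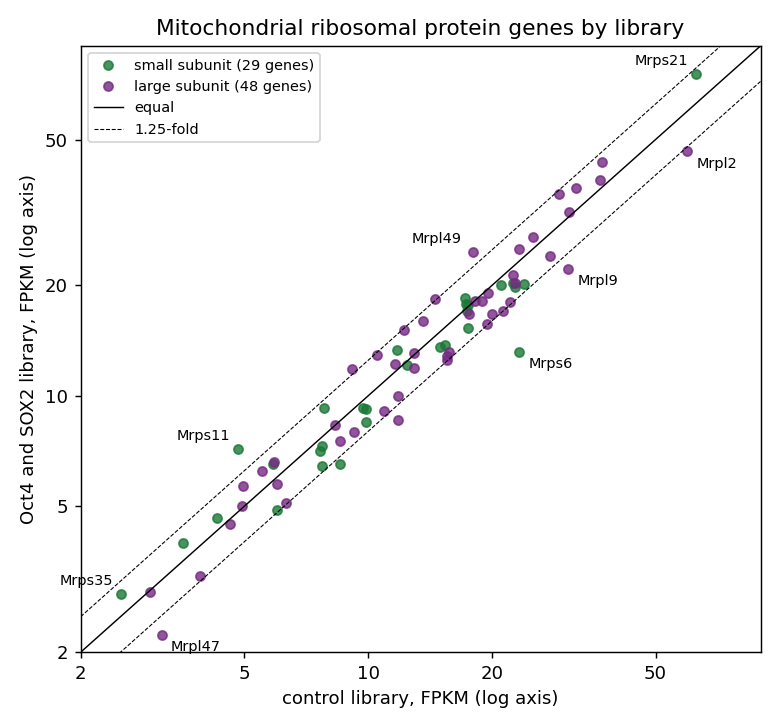
Each point is 1 gene, with its FPKM in the control on the horizontal log axis and in the Oct4/SOX2 library on the vertical log axis. Green points are small subunit and purple points large subunit genes, the solid line marks equal values and dashed lines a ratio of 0.8 and its inverse. Mrps6, at 23.3 and 13.2 FPKM, lies farthest below the line, and Mrps11, at 4.82 and 7.18 FPKM, farthest above it.

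Levels ranged widely within the ribosome. Control values ran from 2.51 FPKM for Mrps35, a small subunit protein found only in mitochondria, to 62.8 FPKM for Mrps21, the counterpart of bacterial protein S21, with a median of 13.6 FPKM. In the Oct4/SOX2 library the range was 2.23 FPKM (Mrpl47) to 75.6 FPKM (Mrps21), with a median of 13.2 FPKM. By the mean of both libraries the highest large subunit genes were Mrpl2, at 59.8 and 46.4 FPKM in the control and Oct4/SOX2 libraries, Mrpl43 at 37.0 and 43.4 FPKM, and Mrpl28 at 36.6 and 38.7 FPKM. By the same mean, Mrps23 and Mrps7 came next to Mrps21 in the small subunit, Mrps23 at 24.0 and 20.1 FPKM and Mrps7 at 22.5 and 20.3 FPKM. At the low end stood Mrpl47, Mrpl48 and Mrpl32 at 3.15, 2.95 and 3.90 FPKM in the control and 2.23, 2.92 and 3.23 FPKM after transduction. Mrps35, Mrps30 and Mrps25 stood at 2.51, 3.55 and 4.30 FPKM and at 2.88, 3.97 and 4.66 FPKM. Mrps25 shares 69.8% of its exon bases, all of them with Nr2c2, and Mrpl43 33.4%, all of them with the neighbouring helicase gene Twnk.

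Part of this order moved with the gene length used for FPKM. The deposited length covers every annotated exon of a gene, and in 19 of 78 members it was over 2 times the length of the principal transcript in the annotation. Mrpl33, with a deposited length of 7326 bases and a principal transcript of 478 bases, was the extreme at 15.3 times. Across the 77 measured genes the Spearman correlation of control FPKM with deposited length was -0.71, and with reads per kilobase of principal transcript in place of FPKM it was -0.33. On that second scale Mrps21 still had the highest control level, 3037 reads per kilobase, and Mrpl47 the lowest, 132. The log2 ratio between libraries, in which length cancels apart from the added 1, had a Spearman correlation of -0.07 with length.

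Mrps6 (ENSMUSG00000039680), the counterpart of bacterial protein S6 in the platform of the small subunit, was the member with the largest difference and the only one past 1.5-fold. It had 1140 reads or 23.3 FPKM in the control and 645 reads or 13.2 FPKM after transduction. Its FPKM without the added 1 was 1.76-fold lower (95% counting interval 1.60 to 1.95). Counting intervals here are exact conditional binomial intervals from the recovered reads and cover counting error only. The gene lies on chromosome 16 from 92058270 to 92112227 in GRCm38, on the plus strand. Of its 1533 annotated exon bases 305, or 19.9%, also belong to other genes, among them Slc5a3, an inositol transporter gene on the same strand. Slc5a3 had 2038 reads in the control and 1631 after transduction, a log2 ratio of -0.27, and the overlapping entry AC144408.3 had 0 reads in both libraries. How the shared bases bear on the Mrps6 value was not tested.

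The next small subunit genes at the low end differed less. Mrps31, a protein found only in mitochondria, had 896 control reads and 684 after transduction, at 8.53 and 6.52 FPKM, 1.31-fold lower (1.18 to 1.45). Mrps22, whose human counterpart is mutated in an inherited mitochondrial disease, stood at 6.01 and 4.88 FPKM, 1.23-fold lower (1.11 to 1.37). Mrps23 was 1.19-fold lower (1.09 to 1.30). Mrps9, the S9 counterpart, stood at 7.73 and 6.43 FPKM, 1.20-fold lower (1.11 to 1.30). None of these 4 shares exon bases with another gene, and each interval lies below equality.

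At the high end of the small subunit, Mrps11, the S11 counterpart, had 334 control reads and 497 after transduction. These are 4.82 and 7.18 FPKM, 1.49-fold higher (1.30 to 1.72). Mrps21 was 1.20-fold higher (1.12 to 1.29), from 1482 to 1780 reads. Mrps27, a pentatricopeptide repeat protein, stood at 7.81 and 9.28 FPKM, 1.19-fold higher (1.06 to 1.34). Mrps34 stood at 5.87 and 6.54 FPKM, with a ratio of 1.11 whose interval spans equality (0.968 to 1.28), and 77.8% of its exon bases are shared with other genes. Mrps36, at 11.7 and 13.4 FPKM and 1.14-fold higher (1.01 to 1.29), carries a ribosomal name although its product is now known as a subunit of the oxoglutarate dehydrogenase complex. Its value is uncertain because 3 processed pseudogenes carry its name, with 0 to 12 reads each.

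Mrps11 lies next to a large subunit member, Mrpl46, and they start in opposite directions. Mrps11 (ENSMUSG00000030611) runs on the plus strand of chromosome 7 from 78783119 to 78792989, and Mrpl46 on the minus strand from 78775236 to 78783531. The RefSeq start sites on GRCm38.p6 lie at 78783131 for Mrps11 and 78783089 for Mrpl46. The 41 bases between them, chr7:78783090-78783130 on the plus strand, are shown because both members start from this stretch and differ in direction, with no letters in capitals.
Mrps11 and Mrpl46, between start sites: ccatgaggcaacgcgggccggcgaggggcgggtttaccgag
Of these bases 73.2% are G or C. Mrpl46, a protein found only in mitochondria, had 533 control reads and 450 after transduction, at 11.8 and 9.98 FPKM, 1.18-fold lower (1.04 to 1.34). The genes share 173 exon bases on opposite strands, and whether the authors' counting used strand is not given in the sources used here, so reads there cannot be told apart.

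**Figure D2:**
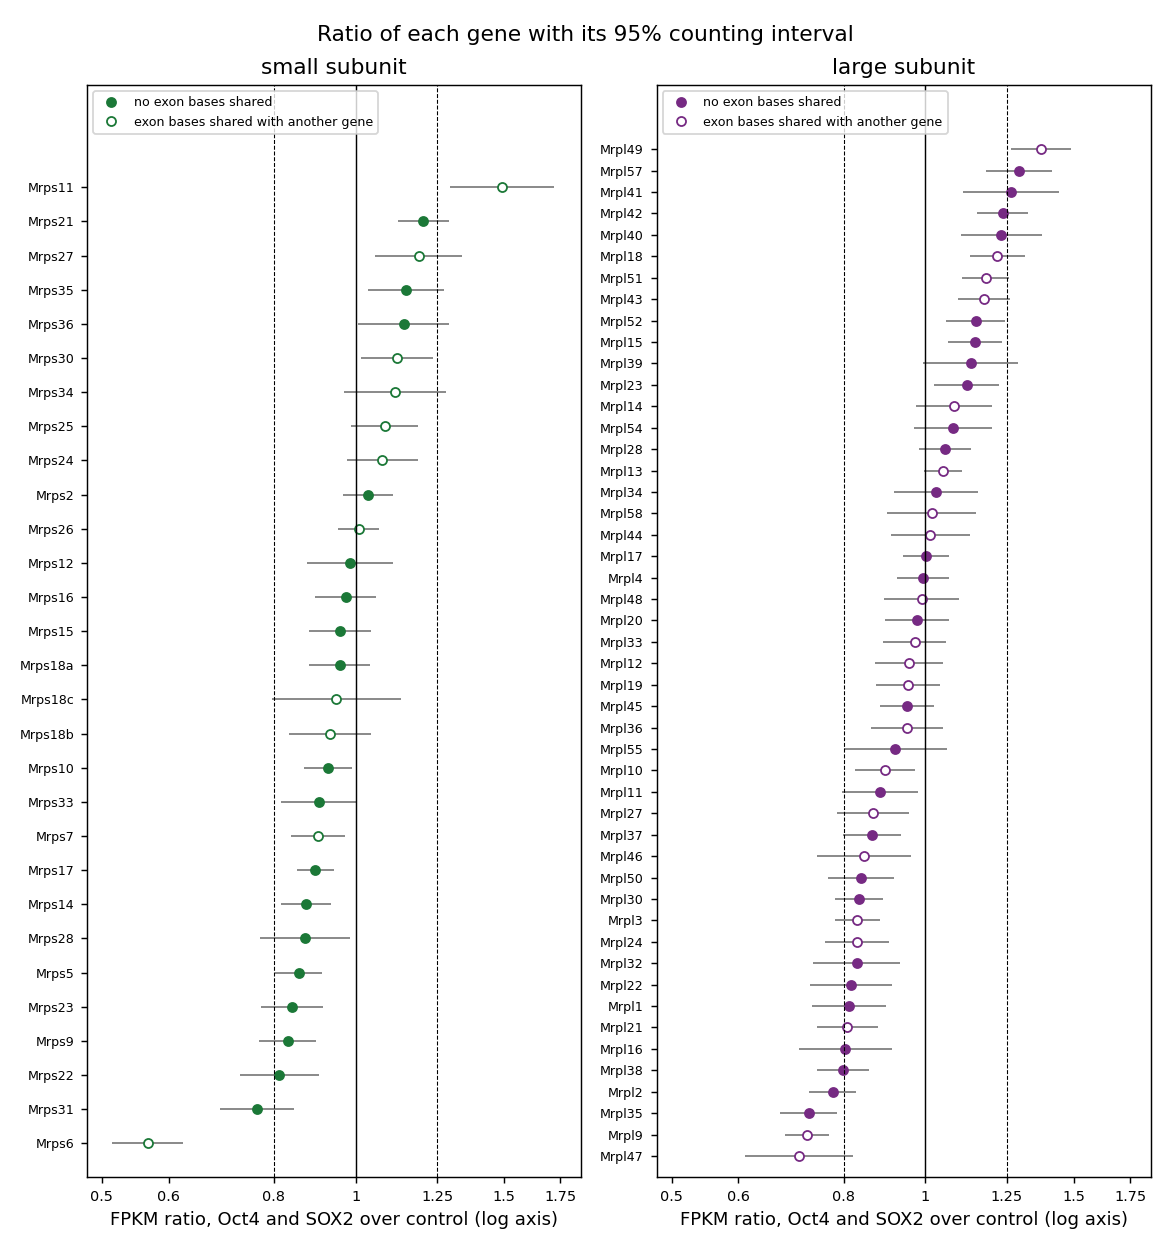
Each row is 1 gene, and the point is its plain FPKM ratio, Oct4/SOX2 over control, on a log axis, with bars for the 95% counting interval. Solid lines mark equality and dashed lines a ratio of 0.8 and its inverse, and open points share exon bases with another gene. Of the 77 intervals 17 lie above equality, 30 below it and 30 span it.

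In the large subunit, Mrpl9, Mrpl35, Mrpl47 and Mrpl2 were the members lower by the call level. All are counterparts of bacterial ribosomal proteins. Mrpl9 (ENSMUSG00000028140) lies on chromosome 3 from 94443318 to 94451130 and had 2646 and 1913 reads in the control and Oct4/SOX2 libraries. Its levels were 30.7 and 22.2 FPKM, 1.38-fold lower (1.30 to 1.47). Mrpl35 had 1578 and 1145 reads, at 11.9 and 8.62 FPKM, also 1.38-fold lower (1.27 to 1.49). Mrpl2, which sits near the peptidyl transferase centre, was 1.29-fold lower (1.21 to 1.37). Mrpl47, with 444 and 314 reads, was 1.41-fold lower (1.22 to 1.64), and 24.2% of its exon bases are shared with other genes. Mrpl38 and Mrpl16 followed, at 21.3 and 17.0 FPKM (ratio 0.799, 0.744 to 0.858) and at 15.6 and 12.5 FPKM (1.24-fold lower, 1.10 to 1.41).

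The 5 highest ratios in the large subunit, leaving out genes under 5 FPKM in both libraries, all belonged to proteins without a bacterial counterpart. This rests on a near tie, as Mrpl40 had a log2 ratio of 0.2761 and Mrpl18, which has a counterpart, 0.2757. With a pseudocount of 5 FPKM Mrpl40 and Mrpl42 fell to 0.21 and 0.22. Mrpl18 stayed at 0.246 or above under every pseudocount and scaling, so it was then among the 5 highest. Mrpl49 (ENSMUSG00000007338), on chromosome 19 from 6053630 to 6057751, had 990 control reads and 1355 after transduction. Its levels were 18.0 and 24.7 FPKM, 1.37-fold higher (1.26 to 1.49). Mrpl57 had 864 and 1115 reads, at 9.16 and 11.8 FPKM, 1.29-fold higher (1.18 to 1.41). Mrpl41 stood at 14.6 and 18.4 FPKM, 1.26-fold higher (1.11 to 1.44). Mrpl42 stood at 12.2 and 15.1 FPKM, 1.23-fold higher (1.15 to 1.32). Mrpl40 stood at 10.5 and 12.9 FPKM, also 1.23-fold higher (1.10 to 1.37). All 5 intervals lie above equality, and only Mrpl49 of the 5 shares exon bases with another gene, 4.85% of them.

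After these values were seen, members were also divided by whether the protein has a counterpart in the bacterial ribosome, following the standard ribosomal protein nomenclature. In the large subunit the 30 genes with a counterpart had a median log2 ratio of -0.13, with 22 below 0 and 8 above. The 18 measured genes found only in mitochondria had a median of 0.13, with 12 above 0 and 6 below. Summed expression was 531.8 FPKM in the control and 487.5 FPKM after transduction for the first class, and 274.3 and 298.6 FPKM for the second. Counting intervals lay above equality for 3 of the 30 and below it for 15, and for the mitochondrial class above for 8 of 18 and below for 4. Of all protein-coding genes that passed the filter, 34.3% had an interval above equality and 37.6% below it. Among those with control reads in the members' range these shares were 35.0% and 34.6%. The difference of the medians, 0.26, was 0.29 among genes that share no exon bases with another gene, 16 and 11 in number, and 0.22 after centring on genes of like GC content. Median GC content of the principal transcripts was 50.5% and 50.7% in these classes. The classes overlap, and the difference has no test.

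A few counterparts of bacterial proteins, picked by their place in the ribosome after their values were seen, are given for description. In the stalk that recruits translation factors, Mrpl10 stood at 22.7 and 20.4 FPKM and Mrpl11 at 8.53 and 7.54 FPKM, 1.12-fold (1.03 to 1.21) and 1.13-fold lower (1.02 to 1.26). Mrpl12, the stalk's repeated protein, stood at 18.9 and 18.1 FPKM, with an interval that spans equality. Around the exit of the peptide tunnel Mrpl22 was 1.22-fold lower (1.09 to 1.37) and Mrpl24 1.21-fold lower (1.10 to 1.32), beside Mrpl47, described above. Mrpl23, at the same exit, stood at 5.92 and 6.62 FPKM, 1.12-fold higher (1.02 to 1.22), and Mrpl4, which lines the tunnel, was level. Mrpl18, a counterpart of the protein that binds 5S RNA in bacteria, was the highest of its class, with 1303 and 1584 reads, 1.22-fold higher (1.13 to 1.31). In the small subunit Mrps12, of the decoding centre, stood at 17.4 and 17.1 FPKM, and Mrps5, at 9.89 and 8.46 FPKM, had a ratio of 0.856.

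In the small subunit the order of the class medians turned with the exon-sharing setting, and no test compared the subunits. Its 16 genes with a bacterial counterpart had a median log2 ratio of -0.08, with 12 below 0. Its 10 genes found only in mitochondria had a median of 0.05, with 6 above 0, the same order as in the large subunit. These 10 include Mrps30, at a log2 ratio of 0.13, whose place in the structure is the large subunit. Among the 5 of these 10 that share no exon bases with another gene the median was -0.24 and 4 lay below 0, while for the 11 such genes with a counterpart it was -0.10 and 9 lay below 0. The copies Mrps18a and Mrps18b, which with Mrps18c form a family related to bacterial S18, stood at 9.71 and 9.30 FPKM and at 9.87 and 9.19 FPKM in the control and Oct4/SOX2 libraries. Mrps18c stood at 7.72 and 7.32 FPKM. The ratios of these 3 were between 0.932 and 0.957, and all 3 intervals span equality.

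**Figure D3:**
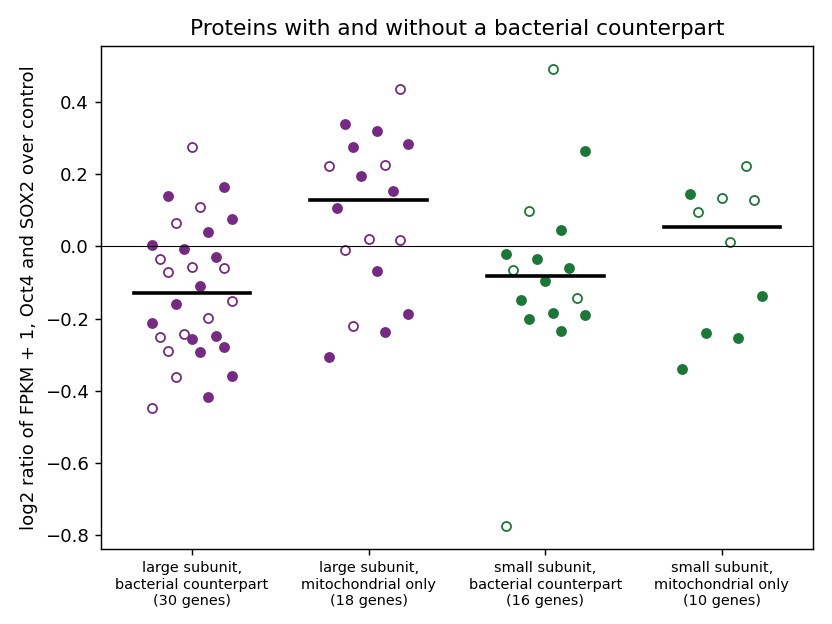
Each point is the log2 ratio of FPKM + 1, Oct4/SOX2 over control, for 1 gene, by subunit and by whether the protein has a bacterial counterpart, with bars at the medians and open points for genes that share exon bases with another gene. Large subunit medians are -0.13 with a counterpart and 0.13 without one, and the classes overlap.

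Many members differed from equality by more than counting error, as many other genes did. Of the 77 members, 17 or 22.1% had a counting interval above equality and 30 or 39.0% below it, beside 34.3% and 37.6% of all protein-coding genes. Among protein-coding genes with control reads in the members' range of 265 to 3183, these shares were 35.0% and 34.6%. Members at equality include Mrpl17, with 2015 and 2016 reads, Mrpl4, with 1521 and 1509, and Mrps26, with 2433 and 2450. Intervals from reads say nothing about the spread between cultures.

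Mrpl53 was the only member under the filter. It was listed at 0 FPKM with 0 reads in both libraries, which at 3 reads allows up to 0.119 FPKM. Mrpl53 lies on chromosome 6 from 83109040 to 83109939, and 695 of its 790 annotated exon bases, or 88.0%, are also exons of the gene model Gm42688 on the same strand, which had 14 and 16 reads. Whether reads of Mrpl53 went uncounted over the shared bases was not tested, and no fold is given. In all, 33 of 78 members share exon bases with another gene of the table, 28 of them with a gene on the opposite strand, beside 36.4% of protein-coding genes that passed the filter.

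The start sites were described from RefSeq windows on GRCm38.p6, from 250 bases before to 50 bases after the start, which matched 69 of 78 members. For 51 of these 69 the RefSeq start lay within 100 bases of the gene start in the deposited values. The windows of the others may not cover that start. Nuclear respiratory factor 1 (NRF1), ETS family factors including GABPA, and YY1 are known regulators of many nuclear genes for mitochondria. Letters were searched on both strands. The YY1 letters AAGATGGC were in 12 of 69 member windows, or 17.4%, in 5.34% of 8179 windows of protein-coding genes that passed the filter, and in 2.75% of all 32851 windows. CCGGAAG, the ETS letters, was in 34.8%, 20.6% and 8.86% of these, and the palindromic NRF1 motif, with its 2 middle bases left free, was in 20.3%, 15.2% and 6.23%. The full NRF1 palindrome was in 3 of 69 member windows, or 4.35%, beside 2.40% of the 8179. CACGTG, the E-box bound by MYC, was in 7.25% of member windows and 10.7% of the 8179, and CCAAT in 39.1% and 40.0%. The octamer ATGCAAAT, bound by POU factors such as Oct4, was in 0 of 69 member windows and 102 of the 8179, and AACAATG, a SOX family motif, in 1 of 69 (Mrpl45) and 1.74%. A match is only a match of letters, and none says only that the letters are not in this window.

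Stretches of 30 bases around the YY1 letters are shown for 6 of the 12 members, chosen after their values were seen to cover both directions, because these letters were the most frequent relative to other genes. They are printed on the strand of the gene, with AAGATGGC in capitals, which here contains an ATG. All 6 hold the letters on that strand and after the start site, which is not so for all 12. In Mrpl32, Mrpl36, Mrps11 and Mrps12, not shown, the letters lie on the opposite strand and before the start site. Mrps11 had the highest log2 ratio of the 12, 0.49.
Mrpl49, chr19:6057721-6057750, minus strand: gttgaggcgccAAGATGGCagcagcggtgt
Mrpl42, chr10:95501904-95501933, minus strand: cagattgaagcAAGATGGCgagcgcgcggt
Mrps27, chr13:99344789-99344818, plus strand: tggtgcgctccAAGATGGCggctcccatgg
Mrpl35, chr6:71823743-71823772, minus strand: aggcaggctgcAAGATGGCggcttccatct
Mrpl37, chr4:107066822-107066851, minus strand: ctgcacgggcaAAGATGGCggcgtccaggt
Mrps7, chr11:115604147-115604176, plus strand: tgacagcggccAAGATGGCtgcccccgcgc
The first 3 genes had log2 ratios of 0.43, 0.28 and 0.22, and the other 3 -0.42, -0.19 and -0.14. Of all 12 members with the letters 5 lay above 0 and 7 below, with a median log2 ratio of -0.04, beside -0.07 for the 56 measured members without them.

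The ribosome's remaining proteins do not carry Mrp names. Dap3 and Ptcd3, both of the small subunit, stood at 13.0 and 11.5 FPKM (1.13-fold lower, 1.07 to 1.19) and at 16.8 and 15.9 FPKM (1.06-fold lower, 1.01 to 1.11). Aurkaip1 was 1.14-fold lower (1.05 to 1.22), from 27.3 to 24.1 FPKM. Chchd1, at 31.9 and 32.3 FPKM, and Gadd45gip1, at 3.93 and 4.45 FPKM, had intervals that span equality. None of the 5 reached the call level, and their median of -0.08 was near that of the members.

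Genes that act with this ribosome also had medians near or slightly below 0. Beside the counts below, 13.8% of all protein-coding genes that passed the filter were higher and 14.6% lower by the call level. Of 29 assembly factors 25 were measured, with a median of -0.10, 1 higher by the call level (Mettl15, from 2.04 to 3.26 FPKM) and 5 lower (Mterf3, Ddx28, Ngrn, Rbfa and Malsu1). Mterf3 and Ddx28, which act on the large subunit or its RNA, had log2 ratios of -0.44 and -0.42, and Mpv17l2 was 1.19-fold higher (1.10 to 1.29). Spg7, a protease subunit gene, stood at 15.2 and 16.3 FPKM. Translation factors had a median of -0.13 over 14, with 1 lower by the call level and none higher. That one was Lrpprc, which stabilises mitochondrial messenger RNA, at 28.8 and 17.8 FPKM, 1.62-fold lower (1.56 to 1.68). The elongation factor genes Tufm and Gfm1 stood at 28.6 and 30.4 FPKM and at 26.1 and 28.2 FPKM, and Tsfm at 13.2 and 11.4 FPKM.

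Mitochondrial tRNA synthetases and the related amidotransferase had a median of -0.04 over 20, with 1 higher by the call level (Sars2) and 4 lower (Fars2, Lars2, Gatc and Gatb). These are 5% and 20%, beside 13.8% and 14.6% of all protein-coding genes. Lars2, the leucyl enzyme, was 1.49-fold lower (1.45 to 1.53), and Gatc, an amidotransferase subunit, at 27.0 and 18.6 FPKM, 1.45-fold lower (1.34 to 1.57). Vars2, the valyl enzyme, stood at 4.14 and 5.04 FPKM. Genes for copying and transcribing mitochondrial DNA had a median of -0.02 over 12 with none past the call level. The DNA polymerase gene Polg stood at 7.11 and 8.77 FPKM and Trmt10c, which acts in tRNA processing, at 13.7 and 10.8 FPKM. Twnk stood at 13.8 and 11.9 FPKM and the nuclease gene Mgme1 at 6.95 and 7.16 FPKM. Regulators of mitochondrial biogenesis had a median of 0.09 over 11, with 1 higher by the call level (Esrra) and 1 lower (Ppargc1a, from 1.08 to 0.486 FPKM). Esrra, a nuclear receptor gene, was at 20.2 and 26.1 FPKM, 1.29-fold higher (1.21 to 1.38). Nrf1 was 1.26-fold higher (1.17 to 1.35), while Gabpa and Myc were 1.12-fold (1.06 to 1.18) and 1.13-fold lower (1.08 to 1.18).

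The RNA of the same ribosome differed far more between the libraries than the transcripts for its proteins. mt-Rnr1 and mt-Rnr2, its 2 ribosomal RNAs, stood at 107.5 and 329.0 FPKM in the control and at 23.7 and 72.9 FPKM after transduction, while no member reached 2-fold. How ribosomal RNA was removed from the libraries is not given in the sources used here, and its part in these values was not tested. The 13 protein genes of mitochondrial DNA, the only messages this ribosome translates, had a median log2 ratio of -0.27 with a range from -1.32 to 0.98, and summed to 11638 and 11264 FPKM. The ends of that range were mt-Nd6 (716.4 and 286.0 FPKM) and mt-Nd4l (9.28 and 19.2 FPKM), followed by mt-Nd3 (133 and 50 reads) and mt-Atp8 (29 and 56 reads). Nuclear oxidative phosphorylation genes had a median of 0.01 over 79, with 8 or 10.1% higher by the call level and 3 or 3.80% lower (Cox6a2, Ndufa12 and Atp5g1). Their extremes were Cox6a2, at 8.25 and 0.831 FPKM, Ndufa12, at 12.2 and 5.82 FPKM, Ndufb4, at 11.4 and 17.2 FPKM, and Atp5g2, at 66.3 and 110.6 FPKM. Cytosolic ribosomal protein genes had a median of -0.15 over 82, with 3 or 3.66% higher by the call level and 12 or 14.6% lower. Of all protein-coding genes 13.8% were higher and 14.6% lower by that level. In the cytosolic list 61 of 82 lay below 0, beside 46 of 77 members, and 25.6% lay above 0, beside 48.4% of all protein-coding genes. Rps2 and Rps12, with log2 ratios of -0.52 and -0.51, and Rpl27 and Rpl7a, with 0.41 and 0.45, were the extremes of the cytosolic list.

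**Figure D4:**
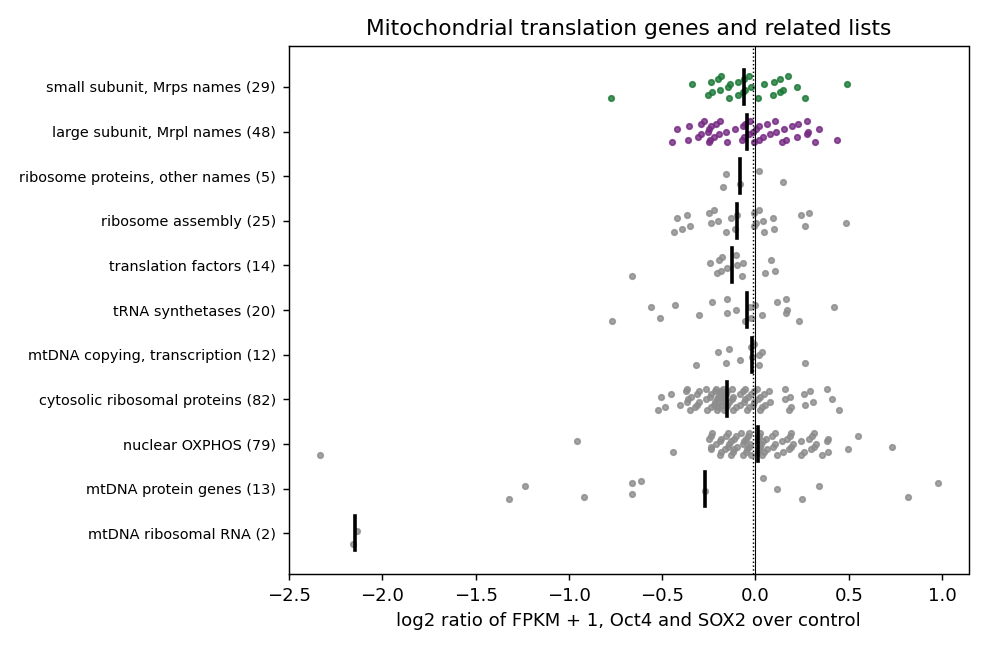
Each point is the log2 ratio of FPKM + 1, Oct4/SOX2 over control, for 1 gene, by list, with the number of measured genes in brackets, bars at the medians and a dotted line at the median of all protein-coding genes. Both Mrp lists, with medians of -0.06 and -0.05, lie between cytosolic ribosomal proteins (-0.15) and nuclear oxidative phosphorylation genes (0.01), and the ribosomal RNAs lie near -2.15.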

How the data were processed

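The authors deposited 1 table of FPKM values with gene length and position for 54532 genes in both libraries. CASAVA, HISAT2, featureCounts 1.5.0-p3 and GRCm38 are named per the submitters' processing notes. Neither the annotation release nor the strand setting is given in the sources used here. FPKM times deposited gene length gave whole reads for 100% of values in each library within 0.001 of a read. Ratios were log2(FPKM + 1), Oct4/SOX2 over control, for genes with at least 1 FPKM in 1 library, and no test was possible with 1 library per group. Members, lists and the levels of 25% (20% lower), 1.5-fold and 2-fold were chosen with earlier results of these data known. Named members were the 5 highest and 5 lowest ratios (at 5 FPKM or more in 1 library) and the 3 highest and lowest levels per subunit, every member past 1.5-fold or under the filter, and up to 2 genes each way per other list; further genes were chosen after their values were seen. Some genes of the other lists are counted but not reported here by name. GENCODE M21 gave exon overlaps, transcript length and GC content for all 78 members, of which 73 had the deposited length there. Intervals were tested on simulated reads with counting error only, which cannot show whether they hold for the spread between cultures. Computation used scipy 1.17.1 and pandas 2.3.3 under Python 3.11.15, with figures from matplotlib 3.10.9. Alternatives were other pseudocounts, filters, scalings and member lists.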

Additional observations from a re-analysis of the deposited data

How the results depend on the processing

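No paired analysis was possible because each group has 1 library, and for the same reason no replicate could be left out. The member median of -0.06 stayed below 0 under every setting run. It was -0.041 with a pseudocount of 5 FPKM, -0.030 with plain read totals and -0.040 after centring within 10 classes of GC content. A pseudocount can change the size of this median but not its sign. With plain read totals the small subunit median was -0.030 and the large subunit median -0.020. Without members that share exon bases the small subunit median was -0.12, the difference between the subunits -0.086, and the counts at the 25% level 1 higher and 3 lower. A pseudocount of 5 FPKM also gave 1 higher and 3 lower, and a large subunit class difference of 0.19. The cause was not tested, apart from the smaller folds and lists that these settings make by construction. GC centring, the exon-sharing setting and the class difference were chosen after seeing the data. Of 77 members 73 kept their sign under both other pseudocounts and the 3 other scalings, and the other 4 lay within 0.03 of 0. No pseudocount can change the sign of a ratio. Plain read totals raise every log2 ratio by 0.031 before the added 1, and median centring subtracts the protein-coding median of -0.01. Under these settings only members near 0 could change sign, so the kept signs there do not show robustness. Depth limits single ratios only by counting error, and the spread between cultures is unknown.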

Other observations

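Start sites of the members often lay close to that of another gene. Of 78 members 33, or 42.3%, had a protein-coding gene on the other strand whose 5′ end lay within 1000 bases, beside 17.8% of the 10276 protein-coding genes that passed the filter. Mrpl54 and Apba3, with 5′ ends 26 bases apart, and Mrpl36 and Ndufs6, 29 bases apart, were among the closest. Of 27 pairs of a member and a measured neighbour 10 lay on the same side of equality, and across these pairs the Pearson correlation of log2 ratios was 0.06. The same count for other such pairs was not made, and many of these ratios lie near equality, so nothing is read from it. Mrpl30 and its neighbour Mitd1 had plain ratios of 0.834 and 0.620, and Mrpl51 and Ncapd2, a condensin gene, 1.18 and 1.63, whereas Mrpl49 and Fau had 1.37 and 0.826. These genes were chosen after their values were seen.

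A further 5 rows with Mrp names are processed pseudogenes and no members. Mrpl48-ps had 187 control reads and 245 in the Oct4/SOX2 library, and Mrpl23-ps1 44 and 57. Reads of Mrpl48, Mrpl23 and Mrps36 could be split with these copies, so the values of these 3 members are uncertain. The Mrps36 copies had 0 to 12 reads each.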
